A study of Mus musculus with 2 samples.

Results

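The cluster that the authors named NSPCs, for neural stem and progenitor cells, is the second largest of 12 clusters of single cells sorted from the dentate gyrus (DG) of adult mice. All cells of its deposited table were taken, 2097 of 10804 cells in all. Of these, 1189 were from the WT library, which is 21.5% of its 5543 cells (exact binomial interval 20.4 to 22.6%), and 908 were from the iKD library, which is 17.3% of its 5261 cells (16.2 to 18.3%). WT mice were NestinCreERT2;VEGFWT/WT;ROSA-STOP-EYFP and iKD mice were NestinCreERT2;VEGFfloxed;ROSA-STOP-EYFP. Both genotypes received Tamoxifen (TAM), and EYFP+ cells were sorted 21 d later from the pooled DGs of 5 adult mice per genotype. TAM activates the Cre recombinase, which is driven by Nestin regulatory sequence, so that recombined cells and their progeny carry EYFP and, in iKD mice, lose the floxed part of Vegfa. The design asks what loss of VEGF does to these cells. Each genotype was 1 library, so no test between genotypes was possible and no p-value is given. All intervals are at 95% and cover counting error only. They leave out variation among cells beyond counting noise and differences between mice or sorts.

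Neural stem cells (NSCs) of the DG are radial glia-like cells that express Nes, Hopx, Sox2 and Gfap. They give rise to intermediate progenitor cells (IPCs), which express Eomes and divide, and then to neuroblasts, which express Dcx and Sox11. Microglia are the resident macrophages of the brain. They derive from the yolk sac, depend on the receptor Csf1r, and in the unchallenged brain express Cx3cr1, P2ry12 and Tmem119 together with complement C1q. Immediate early genes such as Fos and Jun are transcribed within minutes of a stimulus, cell dissociation included, and many encode subunits of the transcription factor AP-1.

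The genes expressed by these cells went against the name of the cluster. All 12 of 12 genes of a homeostatic microglia list had at least 1 UMI, a sequenced molecule, in more than 50% of the cells of each library, and the median share of cells per gene was 99.96% in WT and 99.8% in iKD. The same held for 12 of 12 pan-myeloid genes, with medians of 99.9% and 99.8%. Cx3cr1, the fractalkine receptor, and P2ry12, a purinergic receptor for ADP, were each found in all WT cells, and in all and 99.9% of iKD cells. Of the 10 NSC genes, 9 were found in under 5% of the cells of each library. Nes had a UMI in 0.505% of WT and 0.441% of iKD cells, Hopx in 0.336% and 0.661%, and Sox2 in 0.0841% and 0.11%, and Pax6 had none. The exception was Slc1a3, a glutamate transporter, at 79.6% and 74.9%. The 5 IPC genes had no UMI in any of the 2097 cells, which allows a share of up to 0.143% of cells with a UMI. All 7 neuroblast genes were under 1% in both libraries. Of 12 genes of cell division, 11 were under 5%, and the exception was Pcna, a replication and repair clamp, at 31.2% and 31.9%. The 7 markers of border macrophages were also under 5%. RNA free in the suspension gives UMIs in cells that do not express a gene. In the 130 iKD cells of the cluster named Astrocytes, which expressed choroid plexus genes and had a median of 7902 UMIs, the median share per gene was 37.7% for the homeostatic list and 23.8% for the NSC list. The plot of marker shares sets these lists side by side. The reporter EYFP is not among the genes of the tables, so its RNA was not measured here.

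**Figure D1:**
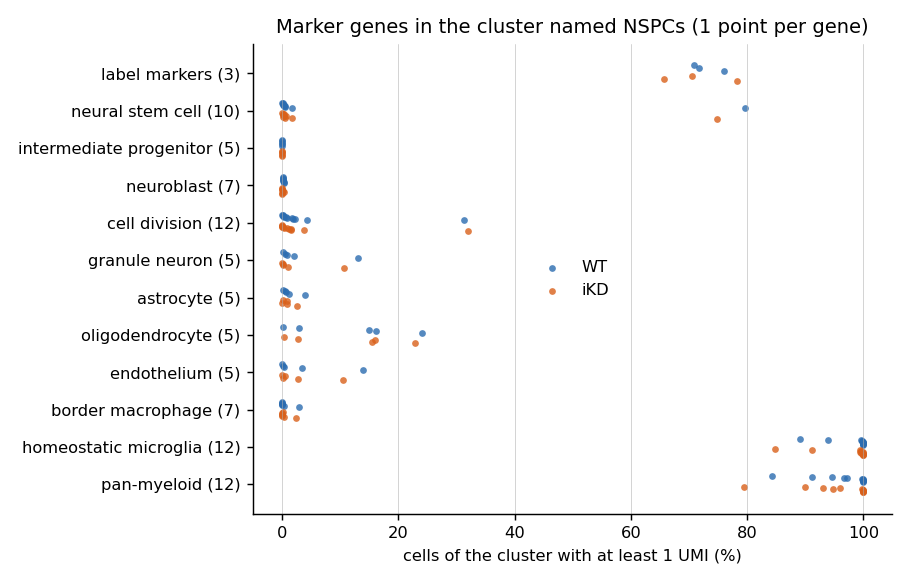
Share of cells of the NSPCs cluster with at least 1 UMI of each marker gene (percent, x axis), by list (y axis), for the WT and iKD libraries, with 1 point per gene and library. The 12 homeostatic microglia genes lie at 84.8% or more, whereas the NSC genes other than Slc1a3 and all IPC and neuroblast genes lie near 0.

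Depth was lower in iKD. The median cell of the cluster held 7343 UMIs of 2954 genes in WT and 6363.5 UMIs of 2712 genes in iKD. The cluster's cells had between 1025 and 3987 detected genes, and 80 of them had under 2000. The methods of the study state that cells under 2000 or over 5000 genes were left out, whereas the deposited cells of all clusters ran from 1004 to 3999. Mitochondrial transcripts took a median of 0.965% and 0.956% of UMIs, and ribosomal protein genes 5.48% and 5.37%. The libraries shared 9 cell barcodes, of which 1 belonged to a cell of the cluster in both. Sorted cells came from mice of both sexes. Cells with Xist and no Y-linked UMI were scored female and the reverse male, which gave 829 female and 267 male cells in WT (75.6% female) and 656 and 149 in iKD (81.5%). The cluster named IPC2, in contrast, was 0.836% female in WT and 15.8% in iKD.

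The level of a gene is given below as its mean over cells in UMIs per 10,000 UMIs of the cell. The RNA with the highest level was Cst3, which encodes the protease inhibitor cystatin C, at 501 in WT and 497 in iKD. It was followed by the noncoding RNA Malat1 (256 and 244). The 3 chains of complement C1q were all among the 10 highest, with C1qa at 85.4 and 85.3, C1qb at 74.5 and 73.9 and C1qc at 55.9 and 55.4. Tmsb4x of the actin and motility list (81.4 and 81.9) and the actin gene Actb (55.1 and 56.1) were among the 10 highest as well. So were the cathepsins Ctsd (66.9 and 67.7) and Ctss (44.3 and 42.9). The libraries differed by less than 5% in each of the genes named here.

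A set of 3 genes, Aldoa, Sox4 and Fosb, was given as markers of the cluster, and it did not set it apart from all others. Aldoa, a glycolytic enzyme, had a level of 2.16 in WT and 1.92 in iKD, below that of the cluster named qNSC1 at 2.89. Sox4, a transcription factor of progenitors and of many other cells, was at 3.51 and 3.70, and 3 of the 7 other large clusters of like cells were higher. Fosb, an AP-1 subunit, was at 4.52 and 4.91, below eNB at 7.63 and IPC2 at 5.03. Vegfa itself was close to the limit of detection. It had 22 UMIs in WT and 7 in iKD, which is a level of 0.02 against 0.01. The ratio of iKD over WT was −0.62 on the log2 scale (−2.09 to 0.66). No difference could be detected at this depth, and a count per gene does not show whether the floxed part is in the transcript. Of the 9 genes of the VEGF system, 3 reached a level of 0.5: Vegfb at 0.66 and 0.65, and the co-receptors Nrp1 at 1.38 and 1.28 and Nrp2 at 0.52 and 0.55. Kdr, the receptor VEGFR2, was found in 3.45% and 2.75% of cells.

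Many immediate early genes were widely expressed in the cluster. Of 21 in the list, 15 were found in more than 50% of the cells of both libraries and 3 in under 5% of both. The median share per gene was 75.9% in WT and 78.3% in iKD, against 99.5% and 98.3% for a list of lysosome genes. The AP-1 subunits Jun, Fos, Jund and Junb had levels of 38.9, 20.1, 18.6 and 17.96 in WT and 41.7, 22.7, 19.8 and 18.1 in iKD. Btg2, an antiproliferative gene induced by p53 and by growth factors, was at 25.7 and 26.3. Zfp36, which encodes an RNA-binding protein that destabilizes cytokine mRNAs, was at 12.4 and 12.8, and Dusp1, a phosphatase that inactivates MAP kinases, at 4.20 and 4.91. The list as a whole varied between clusters. Its summed level was 176 in WT and 187 in iKD in the cluster, and in the means over both libraries it ran from 55.9 in NB to 194 in eNB.

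The promoters of 4 genes of this list are shown because they include a given marker of the cluster (Fosb) and because each holds a match to a site for a factor that is known to act on immediate early genes. The promoters are those of RefSeq for the mouse build GRCm38.p6, all on the minus strand, each as the 200 bases before the transcription start, 5′ to 3′. The match is in capitals.
Fosb, chr7:19310046-19310245: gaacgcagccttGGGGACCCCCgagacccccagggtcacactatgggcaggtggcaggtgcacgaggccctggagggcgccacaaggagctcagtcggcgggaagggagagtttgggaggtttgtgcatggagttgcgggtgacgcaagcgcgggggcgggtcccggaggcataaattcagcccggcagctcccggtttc
Btg2, chr1:134079156-134079355: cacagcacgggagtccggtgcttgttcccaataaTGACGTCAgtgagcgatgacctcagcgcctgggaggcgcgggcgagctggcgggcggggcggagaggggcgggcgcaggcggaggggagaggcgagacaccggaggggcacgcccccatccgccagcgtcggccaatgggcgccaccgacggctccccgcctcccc
Dusp1, chr17:26508473-26508672: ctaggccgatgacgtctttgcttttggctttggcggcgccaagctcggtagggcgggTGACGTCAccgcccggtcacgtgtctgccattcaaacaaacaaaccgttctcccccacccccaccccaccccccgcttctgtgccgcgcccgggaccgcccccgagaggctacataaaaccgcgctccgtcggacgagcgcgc
Zfp36, chr7:28379229-28379428: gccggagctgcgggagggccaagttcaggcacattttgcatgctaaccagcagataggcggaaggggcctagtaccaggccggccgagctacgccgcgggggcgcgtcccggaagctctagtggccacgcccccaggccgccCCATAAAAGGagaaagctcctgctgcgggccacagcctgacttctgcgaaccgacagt
The capitals mark a kappa B site in Fosb, the cyclic AMP response element (CRE) TGACGTCA in Btg2 and Dusp1, and a CArG box, the site of serum response factor, in Zfp36. Over the 250 bases before the start and on both strands, the CRE was found in 2 of the 18 list genes with a promoter in the table and in 1.62% of all 27025 promoters. A kappa B site was found in 4 of 18 (Fos, Fosb, Fosl2 and Ier3) and in 3.75% of all, and a CArG box in 1 of 18 and in 1.4% of all. The AP-1 sites TGAGTCA and TGACTCA were found in 0 of 18 and in 4.43% of all. A match is a feature of the letters and not evidence of binding.

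The cluster was next compared with the 7 other large clusters of like cells, which carry the names qNSC1, qNSC2, aNSCs, IPC1, IPC2, eNB and NB. The clusters were made from these same values, so this is a description with no test. A minimum level of 0.5 left 4128 genes, of which only 4 (0.0969%) were higher than the mean of the 7 by 0.5 on the log2 scale in both libraries, and 134 (3.25%) were lower by as much. Differences were small, and 3701 genes (89.7%) had the same sign in WT and iKD. The authors clustered both libraries together, so this agreement was in part fixed by the clustering. A total of 360 genes (8.72%) had their highest level of the 8 clusters here in both libraries and 477 (11.6%) their lowest. Of the other 7, qNSC1 had more of both (595 highest and 715 lowest) and NB more of the highest (650).

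The 4 higher genes were short and of differing function. Socs3, a feedback inhibitor of JAK and STAT signalling, was at 1.47 in WT and 1.57 in iKD, with log2 ratios of 0.59 and 0.54 against the mean of the 7, but eNB in WT (1.51) and qNSC2 in iKD (1.68) were higher. Klf4, an immediate early transcription factor, was at 3.88 and 3.25, with ratios of 0.58 and 0.55, but eNB was higher at 5.16. Ckb, the brain form of creatine kinase, was at 7.95 and 8.06, above all 7 clusters, of which the next was at 6.05 in WT and 6.33 in iKD. Gp9, a subunit of the platelet glycoprotein receptor for von Willebrand factor, was at 0.59 and 0.63, also above all 7. Next below the fold came Atp5k, Cib1, Ift20, Etfb, Tuba1a and Fam110a, of which the tubulin gene Tuba1a had the highest level, 2.65 in WT and 2.39 in iKD (0.57 and 0.46). Against all 11 other clusters the mean ratio of both libraries turned negative for Ckb (−0.32), Atp5k (−0.86), Etfb (−0.96) and Ift20 (−0.0558), and for the given marker Aldoa (−0.68). For Ckb, the cluster named Astrocytes was at 54.4 and Undefined at 12.2.

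**Figure D2:**
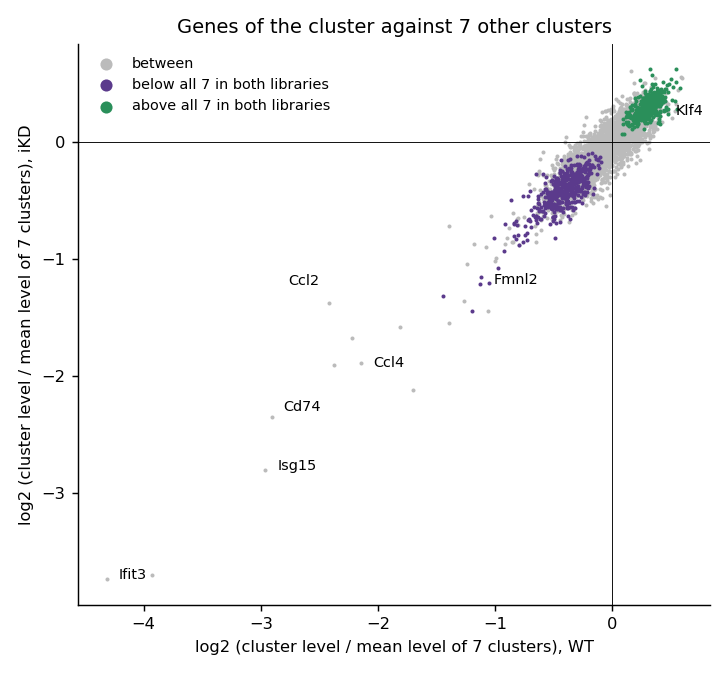
Log2 ratio of the level in the NSPCs cluster over the mean of 7 other large clusters, in WT (x axis) and in iKD (y axis), with 1 point per gene for 4128 genes and lines at 0. Green points are the 360 genes above each of the 7 clusters in both libraries and purple points the 477 below each of them, while the most distant points at the lower left, such as Ifit3 and Isg15, are of neither kind.

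Among the 134 lower genes, 79 were below each of the 7 clusters in both libraries and 55 were not. The largest differences belonged to the second kind, and there 1 or a few other clusters were high. Ifit3, an interferon-induced gene, had a level of 0.02 in both libraries here, with ratios of −4.31 and −3.74. It was at 3.33 in aNSCs and between 0.01 and 0.03 in each of the other 6. Isg15, a ubiquitin-like interferon product, was at 0.08 and 0.07 here (−2.96 and −2.81) and at 4.03 in aNSCs. Ifitm3 had ratios of −3.93 and −3.70 and Rtp4 of −2.37 and −1.91. Against the median of the 7 clusters, Isg15 and the interferon-induced genes Ifitm3 and Rtp4 were slightly higher here than elsewhere (log2 0.0835, 0.0400 and 0.0826). Cd74, the invariant chain of MHC class II, was at 0.12 and 0.10 (−2.91 and −2.35), against 2.41 in qNSC2 and 1.45 in qNSC1. The chemokine Ccl4 was at 1.33 and 1.10 (−2.14 and −1.89), against 27.2 in qNSC1, and 3 of the 7 clusters were above its level here. Apoe, the main lipid carrier of the brain and a gene that rises in activated microglia, was at 3.60 and 4.38 (−1.03 and −0.64), between IPC2 at 2.02 and qNSC2 at 16.2. Of the interferon response list, 5 of 12 genes could be compared, and of the chemokines and cytokines 5 of 12. Of these, 5 and 4 were among the lower genes, beside 3.25% of all genes, with medians of −2.96 and −2.81 and of −1.26 and −1.36. Several of them reached the minimum level only through 1 or a few other clusters, so that a low value here was fixed in part by that minimum, and nothing is read from these counts. Against the median of the 7 clusters 1 gene of the interferon list reached the minimum. Also among the 10 lowest were Csf1, Sp100, Rnf213 and Arhgap15, with ratios of −2.22, −1.82, −1.40 and −1.70 in WT.

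The 79 genes below all 7 clusters gave a more even picture. The following were chosen after their values were seen, as those farthest from the nearest of the 7 clusters. Gab2, an adaptor of receptor signalling, was at 4.63 in WT and 4.48 in iKD, and the nearest cluster was at 7.53 and 7.15. Fgf13, an intracellular member of the fibroblast growth factor family, was at 2.61 and 2.25, and the nearest was at 3.78 and 3.37. Fmnl2, a formin that elongates actin filaments, was at 0.74 and 0.59, with ratios of −1.13 and −1.22. Lrmda, Cdk14, Kcnma1, Pign, Spidr, Dock2 and Smyd3 came next. On the other side, after Ckb, the genes farthest above were Ldhb, a lactate dehydrogenase subunit, at 4.60 and 4.65 (nearest 3.57 and 3.68), then Ift20, Gnb2, Mrps33, Cst3, Osgep, Oaz1, Ndufa6 and Selenop.

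Gene length ran through both sides. Of the 4128 genes, 4109 (99.5%) had a length in GENCODE M21. Genes highest in the cluster had a median length of 9.82 kb, genes lowest in it 113 kb, and all genes 33.5 kb. In 5 bins of equal size by length, the median log2 ratio fell from 0.21 in both libraries in the shortest bin, through 0.11, −0.04 and −0.20 in WT, to −0.34 in WT and −0.35 in iKD in the longest. Of the genes in the shortest bin, 21.4% had their highest level of the 8 clusters here and 0% their lowest, and in the longest bin this was 0.365% and 33.9%. The longest bin held 86 of the lower genes that had a length. A similar fall was found in qNSC1, from 0.13 to −0.23, whereas eNB went from −0.15 to 0.15. The ratio of iKD over WT within the cluster had medians between 0.00 and 0.02 in all 5 bins. With each cell thinned to 4500 UMIs, the medians of the shortest bin were 0.20 and 0.21 and those of the longest −0.34 and −0.35. Over cells with at least 2000 detected genes they were 0.20 and 0.21, and −0.34 and −0.35.

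**Figure D3:**
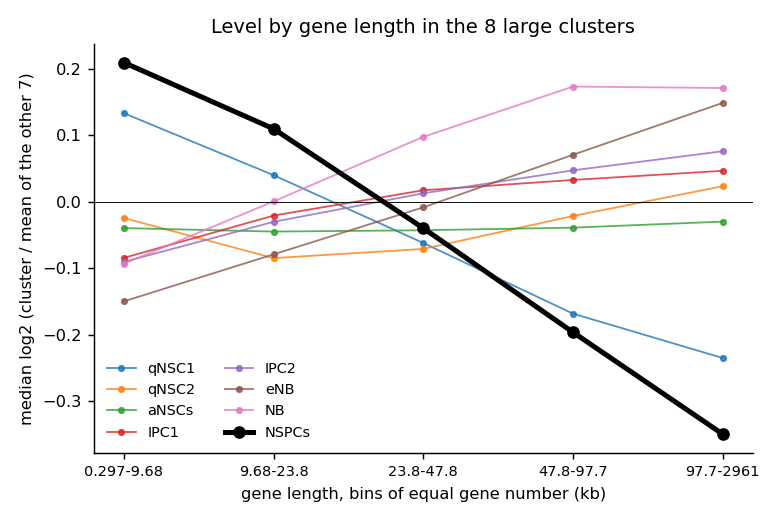
Median log2 ratio of each of the 8 large clusters over the mean of the other 7 (y axis) in 5 bins of gene length in kb (x axis), as the mean of both libraries. The heavy line of the NSPCs cluster falls from 0.21 to −0.35, that of qNSC1 falls to −0.23, and those of eNB and NB rise.

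Most other gene groups lay close to the mean of the 7 clusters. The median ratio of all genes tested was −0.05 in both libraries. Of these 4128 genes, 1604 were above the mean of the 7 clusters in both libraries and 2097 were below it in both. The highest level of the 8 clusters was here for 360 (8.72%). The 12 homeostatic microglia genes were all above the mean of the 7 clusters in both libraries, with medians of 0.24 and 0.22, and 6 had their highest level of the 8 clusters here. Tmem119, a microglial membrane protein, was at 14.7 and 14.3 (0.35 and 0.36), and P2ry12 at 33.2 and 32.8 (0.31 and 0.27). Their summed level was 325 in WT and 315 in iKD, and the means over both libraries in the 7 clusters ran from 234 in qNSC1 to 303 in NB. Of 71 nuclear genes of oxidative phosphorylation, 67 were above the mean in both libraries (medians 0.28 and 0.27) and 17 were the highest of the 8. Atp5k, an ATP synthase subunit, had ratios of 0.50 and 0.54. Of 80 ribosomal protein genes, 78 were above the mean (0.18 and 0.17), as were 11 of 11 mitochondrial transcripts (0.18 and 0.20). Most ribosomal protein genes are under 9.68 kb long, and all genes of that shortest length bin had a median of 0.21 in both libraries. Whether these groups depart from genes of like length was not tested. Against all 11 other clusters, which include the choroid plexus cells, the median over both libraries was −0.66 for oxidative phosphorylation, −0.56 for 12 glycolysis genes and 0.00 for ribosomal protein genes, where it was 0.28, 0.18 and 0.17 against the 7.

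Regulators of microglial identity went in both directions. Among the microglia transcription factors, Spi1, which encodes PU.1, was at 4.71 and 4.82 (0.22 and 0.22) and Cebpa at 2.69 and 2.24 (0.36 and 0.31), both above all 7 clusters. Runx1, needed for microglial development, was below all 7 clusters at 4.42 and 4.21 (−0.50 and −0.47), and Mef2a at 12.01 and 12.7 (−0.41 and −0.36). Of 9 genes of the TGF-beta pathway, on which the homeostatic state depends, 8 were below the mean in both libraries (medians −0.18 and −0.19). Of all 4128 genes, 2097 were. The receptor Tgfbr1 was at 18.2 and 16.5 (−0.44 and −0.42), below all 7 clusters, whereas the ligand Tgfb1 was at 3.43 and 3.14 (0.26 and 0.14). Cdk6, a kinase that partners the D cyclins, was at 1.39 and 1.58 (−0.54 and −0.56), also below all 7. Runx1, Mef2a, Tgfbr1 and Cdk6 span 225, 142, 61.7 and 190 kb, and Spi1, Cebpa and Tgfb1 33.4, 2.64 and 18.1 kb. All genes had medians of −0.20 and −0.19 in the bin of 47.8 to 97.7 kb, and of −0.34 and −0.35 above it. Whether these genes depart from others of like length was not tested. Immediate early genes had medians of 0.22 and 0.22. Of the 15 compared, 12 were above the mean in both libraries, beside 1604 of all 4128 genes. This mean includes the low cluster NB, where Fos was at 2.35, and against the median of the 7 clusters the list stood at 0.11 over both libraries.

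Over all genes compared, 5 clusters lay at nearly the same distance, in an order that differed between the libraries. The median absolute log2 ratio was 0.19 in WT and 0.24 in iKD to aNSCs, 0.23 and 0.21 to IPC1, 0.24 and 0.21 to qNSC1, 0.24 and 0.22 to IPC2, and 0.24 and 0.23 to qNSC2. It was 0.31 and 0.27 to NB, 0.96 and 0.90 to IN2, and 5.65 and 1.37 to the cluster named Astrocytes, which had 4 WT cells. Single cells were then assigned to the mean profile they correlated with best among the 8 large clusters of their own library, without the cell itself. The cluster's own profile came first for 997 of 1189 WT cells (83.9%) and 751 of 908 iKD cells (82.7%). The clusters were made from these same values, so these shares were in part fixed by the clustering. The profiles were also close. The mean correlation was 0.709 with the own profile and 0.697 with that of IPC1 in WT, and 0.693 and 0.683 in iKD. The NSPCs profile came first for 14.9% of WT cells of IPC1 and 21.2% of iKD cells of IPC2. The other WT cells of the NSPCs cluster went mostly to IPC1 (73), eNB (58) and IPC2 (39), and its other iKD cells to IPC2 (81) and IPC1 (51).

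Variation among the cells depended on the gene group. With cells thinned to 4500 UMIs (1146 WT and 819 iKD cells, leaving out the shallower ones), the homeostatic genes summed to a median of 144 UMIs in WT, with 5% of cells under 111 and 5% over 186, and to 141 in iKD (108 to 176). Immediate early genes had a wider spread relative to their median, with medians of 78 and 82 and ranges of 45 to 117 and 47 to 122. Ribosomal protein genes had medians of 246 and 241, with ranges of 167 to 381 and 163 to 357. The ratio of variance to mean over cells, the Fano factor, is 1 for counting noise alone. Its median was 1.16 in WT and 1.15 in iKD over 1573 genes, and it was at least 2 in both for 59. It was largest for Cst3 (20.8 and 19.2), Apoe (17.8 and 12.04) and Malat1 (12.6 and 12.7). Over cells, the sums of ribosomal protein and oxidative phosphorylation genes had a Pearson correlation of 0.32 in WT and 0.28 in iKD. The sums of homeostatic and ribosomal protein genes had one of −0.24 and −0.26. All cells of a library share their preparation, and thinning to a fixed total itself links such sums.

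The genotypes were then compared within the cluster. Where the higher of the genotypes reached a level of 0.5, which 3845 genes did, 86 (2.24%) were higher in iKD and 103 (2.68%) were lower, by at least 0.25 on the log2 scale and with a counting interval clear of 0. The median ratio over all genes was 0.00. Most ratios were small, and 1 higher and 5 lower genes passed 0.5. Ratios in the 7 other clusters come from the same libraries and are no replicates. Their sign was that of the cluster in all 7 for 18 of the 86 higher and 40 of the 103 lower genes. The share of all genes with such agreement was not counted, so nothing is read from these numbers. The sign was the same in female-scored and male-scored cells for 77 and 92 genes. These genes were called on the same cells, most of them female-scored, so this agreement was in part fixed by the calling. In male-scored cells alone, 25 and 41 of them were called.

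**Figure D4:**
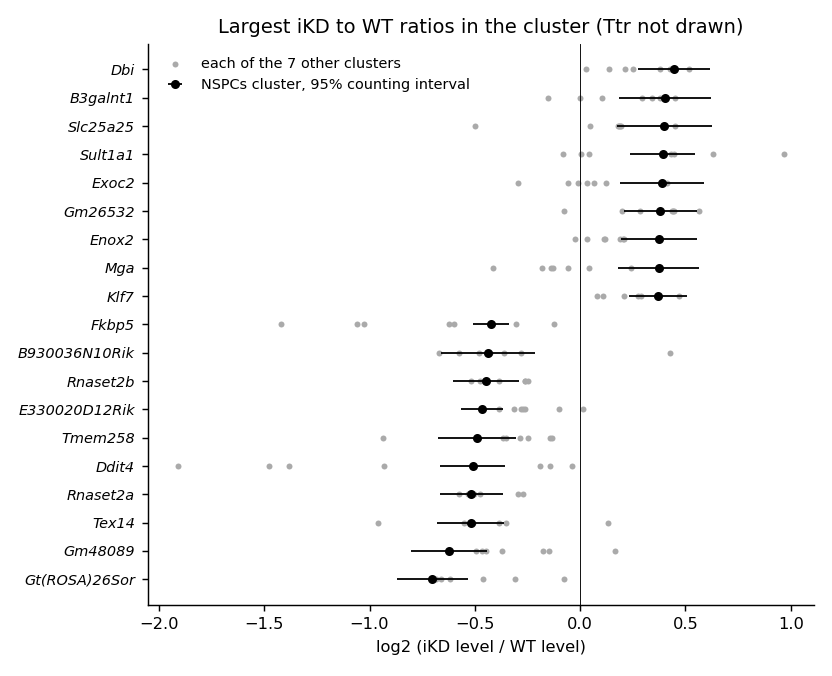
Log2 ratio of the iKD over the WT level within the NSPCs cluster (x axis) for the genes with the largest ratios (y axis), as black points with 95% counting intervals, and in each of the 7 other large clusters as grey points. Ttr, at 6.18, is not drawn, and the cluster's other ratios lie between −0.70 and 0.45.

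Ttr, the thyroxine carrier transthyretin made by choroid plexus epithelium, gave the largest ratio. It had 126 UMIs in 8.58% of WT cells and 6360 UMIs in 99.6% of iKD cells, which is a level of 0.14 against 11.1. Its log2 ratio was 6.18 (5.93 to 6.45). The mean of the 7 other clusters was 6.08, and their iKD levels ran from 9.71 to 11.8. Enpp2, the next most abundant choroid plexus gene of the list, had 14 UMIs in WT and 185 in iKD. All 8 genes of the choroid plexus list had UMIs in iKD cells of the cluster and 4 had none in WT, and their summed level was 0.16 in WT and 11.6 in iKD. In the iKD cells of the cluster named Astrocytes, of which there were 130 against 4 in WT, Ttr had a level of 1031. For every 1000 UMIs of Ttr, Enpp2 had 29.1 in the NSPCs cluster and 44.0 in those cells, Folr1 3.62 and 4.28, and Clic6 2.20 and 3.73. The genotypes and the number of choroid plexus cells in each library cannot be told apart.

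Next among the higher genes was Dbi, which encodes the acyl-CoA binding protein, at 0.67 in WT and 0.91 in iKD, with a ratio of 0.45 (0.28 to 0.62). It was higher in iKD in all 7 other clusters as well. Ier2, an immediate early gene, went from 3.06 to 3.92, a ratio of 0.36 (0.28 to 0.44). Of the 15 immediate early genes compared, 1 was called higher (Ier2) and 1 lower (Klf4), beside 2.24% and 2.68% of all genes. The list had a median of 0.10, and 13 of the 15 were above 0, as were 1992 of all 3845 genes. The transcription factor gene Klf7 went from 1.09 to 1.40 (0.37), and B3galnt1, Slc25a25, Sult1a1, Exoc2, Gm26532, Enox2 and Mga were at ratios of 0.37 to 0.40. Mga, a partner of MAX, was at 0.54 in WT and 0.70 in iKD, whereas the mean of its ratio in the 7 other clusters was −0.09, the largest departure of this kind on the higher side. Immp1l, Emsy, Ttc5 and Spata5 followed on that side. On the lower side were Fam111a, with a ratio of −0.15 here and a mean of 0.32 in the other clusters, Arhgap27 (−0.32 and 0.11), Ccl3 (−0.22 and 0.19), Stx2 and Chm. Of these, Emsy, Fam111a, Ccl3, Stx2 and Chm did not pass the fold or its interval. Apoe went from 3.60 to 4.38, a ratio of 0.28 (0.21 to 0.36), but it was 0.04 in female-scored and 0.55 in male-scored cells. Its Fano factor over cells was 17.8 in WT and 12.04 in iKD, and the counting interval leaves out this variation.

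The largest ratio among the lower genes was that of Gt(ROSA)26Sor, the transcript of the Rosa26 locus in which the EYFP reporter is placed. Its level was 1.17 in WT and 0.71 in iKD, a ratio of −0.70 (−0.87 to −0.53), and the mean of the 7 other clusters was −0.50. Tex14 went from 1.17 to 0.81 (−0.52), Tmem258, a subunit of oligosaccharyltransferase, from 0.84 to 0.59 (−0.49), and the unnamed transcript Gm48089 from 0.93 to 0.60 (−0.62). Rnaset2a and Rnaset2b, near-identical copies of a lysosomal ribonuclease whose reads may be split between them, had ratios of −0.52 and −0.45 and were lower in all 7 other clusters. E330020D12Rik and B930036N10Rik were at −0.46 and −0.44.

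Nfkbia, the inhibitor of NF-kB, went from 3.73 to 2.93, a ratio of −0.34 (−0.43 to −0.26). It was −0.04 in female-scored and −1.08 in male-scored cells. Of 8 chaperones, all were below 0 with a median of −0.24, and 4 were called lower. This was not particular to the cluster, since the mean ratios in the 7 other clusters had a median of −0.24 as well. Of all 3845 genes, 1853 were below 0 and 2.68% were called lower. Hspa8, the constitutive HSP70, went from 9.58 to 8.06 (−0.25), and its cochaperone Dnaja1 from 2.70 to 2.07 (−0.38). Dnaja1 was lower in both sexes, at −0.37 and −0.47. The myeloid factor Cebpa went from 2.69 to 2.24 (−0.26) and hexokinase Hk2 from 2.69 to 2.23 (−0.27). Klf4 went from 3.88 to 3.25 (−0.25), and Ccl4 from 1.33 to 1.10 (−0.27). Of the 80 ribosomal protein genes, 10 were called lower, beside 2.68% of all genes, whereas the median over the 80 was −0.03. Among the 10 were Rps21 (9.37 to 7.19, −0.38), Rps27 (5.91 to 4.55, −0.38) and Rps28 (5.47 to 4.27, −0.35). Of 71 nuclear genes of oxidative phosphorylation, 4 were called lower and 1 higher, beside 2.68% and 2.24% of all genes.

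For the homeostatic microglia and pan-myeloid lists the median ratios were −0.05 and −0.01, and 0 of 12 genes were called in each, which is close to the shares of all genes (2.24% higher and 2.68% lower). Cx3cr1 was at 44.4 in WT and 42.2 in iKD, a ratio of −0.08 (−0.10 to −0.05).

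Glucocorticoid-responsive genes were high in male-scored WT cells. Fkbp5, a cochaperone of the glucocorticoid receptor that the receptor induces, went from 3.88 to 2.90 over all cells, a ratio of −0.42 (−0.51 to −0.34). Its level was 2.89 in female-scored WT, 3.07 in female-scored iKD, 6.38 in male-scored WT and 2.34 in male-scored iKD cells. Male-scored WT cells stood apart, and the other 3 sets ran from 2.34 to 3.07. Ddit4, an inhibitor of mTORC1, had levels of 0.86, 0.96, 2.19 and 0.57 in the same order, and its ratio over all cells was −0.51 (−0.67 to −0.36). Tsc22d3, known as GILZ, followed the same order with 2.47, 2.71, 4.43 and 2.71. The receptor gene Nr3c1 itself was level, at 2.81, 2.74, 2.69 and 2.83. Over the 6 genes of the list that were compared, the median ratio was 0.11 in female-scored and −0.57 in male-scored cells. Lower shares in iKD were not particular to this cluster. With cells thinned and sexes not split, Ddit4 was found in 60.1% of WT and 26.4% of iKD cells of IPC2. In aNSCs this was 44.4% and 11.8%, whereas in qNSC1 it was 15.8% in both. The number of male mice behind each pool is not given in the sources used here, so sex and single animals cannot be told apart.

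**Figure D5:**
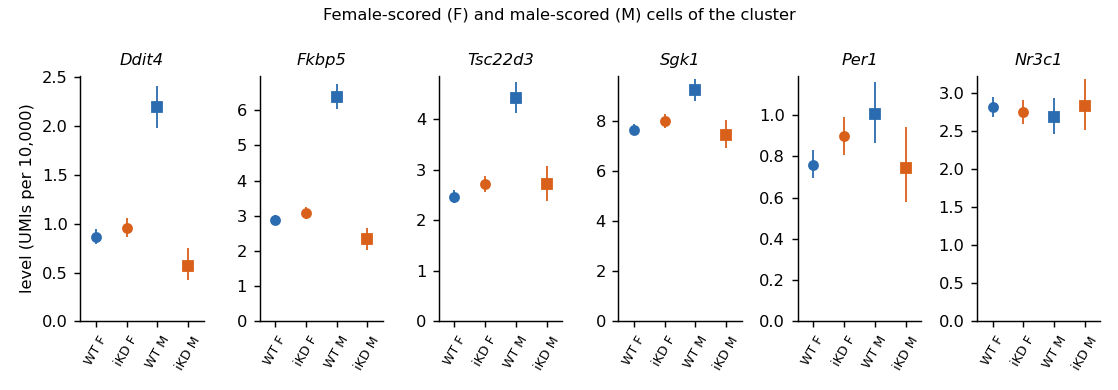
Levels of glucocorticoid-responsive genes and of the receptor gene Nr3c1 (UMIs per 10,000, y axis) in female-scored (F, circles) and male-scored (M, squares) cells of the NSPCs cluster, by library, with 95% counting intervals. For Fkbp5, Ddit4 and Tsc22d3 the male-scored WT cells are the highest set, at 6.38, 2.19 and 4.43.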

How the data were processed

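EYFP+ cells from the DGs of 5 pooled mice per genotype were sequenced with 10x Genomics, giving 1 WT and 1 iKD library. Per the labels, reads were processed with Cell Ranger 7.0.1 and cells were clustered with Seurat 4.1.1. The labels also name other read-processing tools, and a human genome build for these mouse libraries. The mouse genome build is not given in the sources used here. Per cell, the authors scaled UMIs to 10,000, added 1 and took the natural log, and deposited these values in 12 tables, 1 per cluster. All cells and cluster names were used as deposited. The names qNSC1 and qNSC2 differ between these tables and a supplementary sheet of the study, and are those of the tables here. Whole UMIs were recovered for 100% of 32261786 values (tolerance 0.01). The libraries held 44142118 (WT) and 37451839 (iKD) UMIs. No doublet caller was run. In the cluster, 0.841% (WT) and 0.881% (iKD) of cells held Xist together with a Y-linked gene, as a doublet of both sexes would.

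Levels are means over cells of UMIs per 10,000, and ratios are log2 with a pseudocount of 0.01, which understates changes of low genes. Counting intervals are exact (Poisson or binomial), and a count of 0 was given a limit of 3. With 1 library per genotype no test was made. Cluster ratios are taken against the unweighted mean of 7 clusters. Sex-linked genes were set apart. The genes named are the given markers, the members of 36 gene lists past the fold or highest in their list, the 10 genes of highest level, the 10 highest and lowest ratios of each comparison, and the 5 on each side farthest from the other clusters in the genotype ratio. Values of 3 list members are not reported here. Cluster members and lists were chosen with earlier results of these data known. The script was tested on simulated counts. Python 3.11.15, numpy 2.4.6, scipy 1.17.1 and pandas 2.3.3 were used.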

Additional observations from a re-analysis of the deposited data

Results flagged for a closer look

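Only a set of the named genes was searched for ratios that differed between the sexes, not all genes compared. It took in the 6 compared genes of the glucocorticoid list. In 7 genes of this set the ratio of iKD over WT within the cluster had opposite signs in female-scored and male-scored cells. Their counting intervals, which leave out variation among cells, did not overlap. In each case the difference was not tested, since 1 library stands for each genotype. For Ddit4 the log2 ratio was 0.15 in female-scored and −1.92 in male-scored cells, a difference of 2.07. Fkbp5 was at 0.09 and −1.44 (difference 1.53), Tsc22d3 at 0.14 and −0.71 (0.84), Per1 at 0.24 and −0.43 (0.66), and Sgk1 at 0.06 and −0.31 (0.37). These 5 are of the glucocorticoid list, and nothing is read from their number, since that list was put into the search. The other two ran the opposite way. The chemokine Ccl3 was at −0.31 in female-scored and 0.61 in male-scored cells (−0.92), with levels of 0.88 in WT and 0.71 in iKD female-scored cells and of 0.68 and 1.05 in male-scored cells. Fosb was at −0.03 and 0.36 (−0.39).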

How the results depend on the processing

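No paired analysis was possible because each genotype has 1 library, and no library could be left out for the same reason. The numbers of genes past a fold depended on the settings. The count higher in the cluster, 4, became 0 with a pseudocount of 1, with a fold of 1 or against all other cells pooled, 2 with a least level of 2 or with thinned cells, 8 with a least level of 0.1, 36 against all 11 other clusters, 10 with scaling by the median ratio, and, in alternatives chosen after seeing the data, 338 at a fold of 0.25 and 7 in female-scored cells. The count lower, 134, became 16 with a pseudocount of 1, 20 at a fold of 1, 37 and 317 with a least level of 2 and 0.1, 239 against all 11 clusters, 88 with median-ratio scaling (10 higher and 88 lower, against 4 and 134) and 807 at a fold of 0.25. For iKD, 86 higher and 103 lower genes became 3 and 16 with a pseudocount of 1, 306 and 284 with a least level of 0.1, 9 and 22 with a level of 2, 1 and 5 at a fold of 0.5, 142 and 157 in female-scored cells, 217 and 239 in male-scored cells, and 135 and 155 in the average of the sexes. Of the 86 and 103, 25 and 41 were called in male-scored cells. With thinned cells 108 and 128 genes were called, but only 50 and 69 of the 86 and 103 were among them. Of the 4 genes higher and 134 lower in the cluster, 1 and 109 were called with thinned cells. Against the median of the 7 clusters, chosen after seeing the data, 2 and 77 of them were. Among genes past the fold, the reversed values were Ckb at −0.32 against all 11 clusters, Ifitm3 at 0.0400, Isg15 at 0.0835 and Rtp4 at 0.0826 against the median of the 7 clusters (chosen after seeing the data), and Ddit4 at 0.15 and Fkbp5 at 0.0882 in female-scored cells. Other values that changed sign included, against all 11 clusters, Atp5k (−0.86), Etfb (−0.96), Ift20 (−0.0558), Aldoa (−0.68) and the medians of oxidative phosphorylation (−0.66) and glycolysis (−0.56). In female-scored cells they included Tsc22d3, Sgk1, Per1, Fosb and the glucocorticoid median (0.11), and in male-scored cells Ccl3 (0.61), Nr3c1 (0.07), Aldoa (0.01), Sox4 (−0.12) and the pan-myeloid median (0.03). The cause was not tested. The length trend kept its size under all 4 alternatives run.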

Other observations

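Other groups differed little or were low in the cluster. Of 12 NF-kB subunits and inhibitors, 6 could be compared with the other clusters and none passed the fold. Of all genes, 0.0969% passed it on the higher side and 3.25% on the lower. Of the genes of disease-associated microglia, Trem2, a lipid-sensing receptor of myeloid cells, was at 21.1 in WT and 18.3 in iKD and above all 7 other clusters by mean level, whereas Lpl was found in 5.30% and 2.20% of cells, Axl in 0.589% and 0.661%, and Spp1 in 0.168% and 0.11%. Of 11 genes of actin and motility, 9 were above the mean of the 7 clusters in both libraries, beside 1604 of all 4128 genes. Their medians were 0.19 and 0.21. The pro-inflammatory cytokine gene Il1b was found in 0.421% and 0.22% of cells, and Tnf in 7.99% and 5.62%.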
